A study of Equus caballus with 12 samples.

Results

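The genes described here are 27 of the 1341 in the authors' deposited table whose symbols begin with the name of a protein kinase or protein phosphatase family. They were chosen by name patterns, with earlier results of these data known. The patterns covered MAP kinases, dual-specificity and tyrosine phosphatases, serine/threonine phosphatase subunits, and protein kinase A, C and D families. They also covered AMPK-related, NDR, polo-like, Janus and interleukin-1 receptor-associated kinase families, among others. The name patterns met 28 genes, of which 1 was left out by the rule. The table itself lists only genes that the authors called different, so every member had already passed a test of licensed against naive cells. Family members outside the table were not analysed here, and the counts below cannot say what share of a family changed.

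Protein kinases transfer phosphate to serine, threonine or tyrosine residues, and protein phosphatases remove it. In MSCs (mesenchymal stem cells, the stromal cells of marrow that can become bone, cartilage or fat), IL-1β receptors act through interleukin-1 receptor-associated kinases and MAP kinase cascades to p38, JNK, ERK and NF-κB. TGF-β receptors are themselves kinases that phosphorylate SMAD proteins and also feed into p38. Not every member is an active kinase or phosphatase, and the following are examples. PRKAG3, PPP2R2C, PPP1R13L and PPP1R27 are regulatory or binding subunits. PTPRN and IRAK3 are regarded as catalytically inactive, and JAKMIP1 only shares the name pattern.

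RNA was measured by bulk sequencing of polyA-selected libraries from bone marrow MSCs of 6 horses. Licensed cells (6 libraries) were grown for 72 hours in standard medium to which human recombinant cytokines were added, IL-1β at 2 ng/ml and TGF-β2 at 1 ng/ml, and naive cells (6 libraries) of the same horses for 72 hours in standard medium only. Both media were low glucose DMEM with fetal bovine serum and antibiotics, and each horse gave 1 library per condition, so p-values measure the spread between horses. The main fit does not pair the 2 libraries of a horse, so that spread includes differences in level between horses. Values are normalized counts, which are reads divided by a size factor for each library; since gene lengths were not used, levels are compared between libraries and not between genes.

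The listed genes held 2718393 to 3424328 reads in licensed libraries and 1672419 to 1844648 in naive libraries, and the depth over all genes is unknown. Summed over the listed genes, normalized counts were 1.37 to 1.76 times as high in a horse's licensed library as in its naive one. Of 14 MSC and stromal markers, 2 were in the table. THY1 had 298 to 4743 normalized counts in licensed and 4625 to 31119 in naive libraries, and MCAM 132 to 240 in licensed and 269 to 785 in naive libraries. None of the 19 leukocyte, 8 endothelial or 5 erythroid markers was in the table, so these were not analysed here. Of 7 smooth muscle and pericyte markers 3 were listed, MCAM, MYH11 and CNN1, with 1 higher and 2 lower, and of 4 adipocyte markers 1 was higher and 1 lower. IBSP, the listed one of 4 osteoblast markers, was higher, and SOX9, the listed one of 3 chondrocyte markers, was lower. The part of these markers in the kinase and phosphatase results was not tested.

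Licensed cells had more RNA of 16 members and less of 11. The authors' deposited table lists 50% of its genes as higher and 50% as lower, against 59.3% and 40.7% of the members. The 5 largest rises, in order, were those of PRKAG3, PTPRN, JAKMIP1, PTPRE and PTPRU. PRKAG3 encodes an AMPK subunit and JAKMIP1 a Janus kinase partner, and PTPRN, PTPRE and PTPRU belong to the receptor tyrosine phosphatase family. The 5 largest falls, in order, were those of DAPK2, DUSP9, PPP2R2C, MAP2K6 and STK17B. DAPK2 and STK17B are death-associated kinases, DUSP9 is a dual-specificity phosphatase, PPP2R2C a phosphatase 2A subunit and MAP2K6 an activator of p38 kinases. Of these falls, DAPK2, DUSP9 and PPP2R2C rested on few reads. The p38 kinase genes MAPK11 and MAPK12 were also lower. In the authors' deposited table the median log2 fold change was 1.36 for the members that rose, against 1.60 for all listed rises, and -1.5 for those that fell, against -1.48 for all listed falls. The change in a bulk culture cannot tell less RNA per cell from fewer cells that express a gene.

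Refitted with limma on log2(normalized count + 1) over the whole table, 16 members were higher and 10 lower at an adjusted p below 0.05 and more than a 2-fold change, 59.3% and 37.0% of the members. The same thresholds were passed by 48.4% of the table as higher and by 46.8% as lower. This fit repeats the authors' selection on the same libraries and serves for errors. The change went the same way in 6 of 6 horses for 15 members that rose and 10 that fell, 55.6% and 37.0% of the members. Of the whole table, 47.1% did so as higher and 46.7% as lower. Licensed and naive libraries did not overlap for 12 members that were higher in licensed cells, 44.4%, against 32.4% of the table, and for 5 that were lower, 18.5%, against 26.8% of the table.

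**Figure D1:**
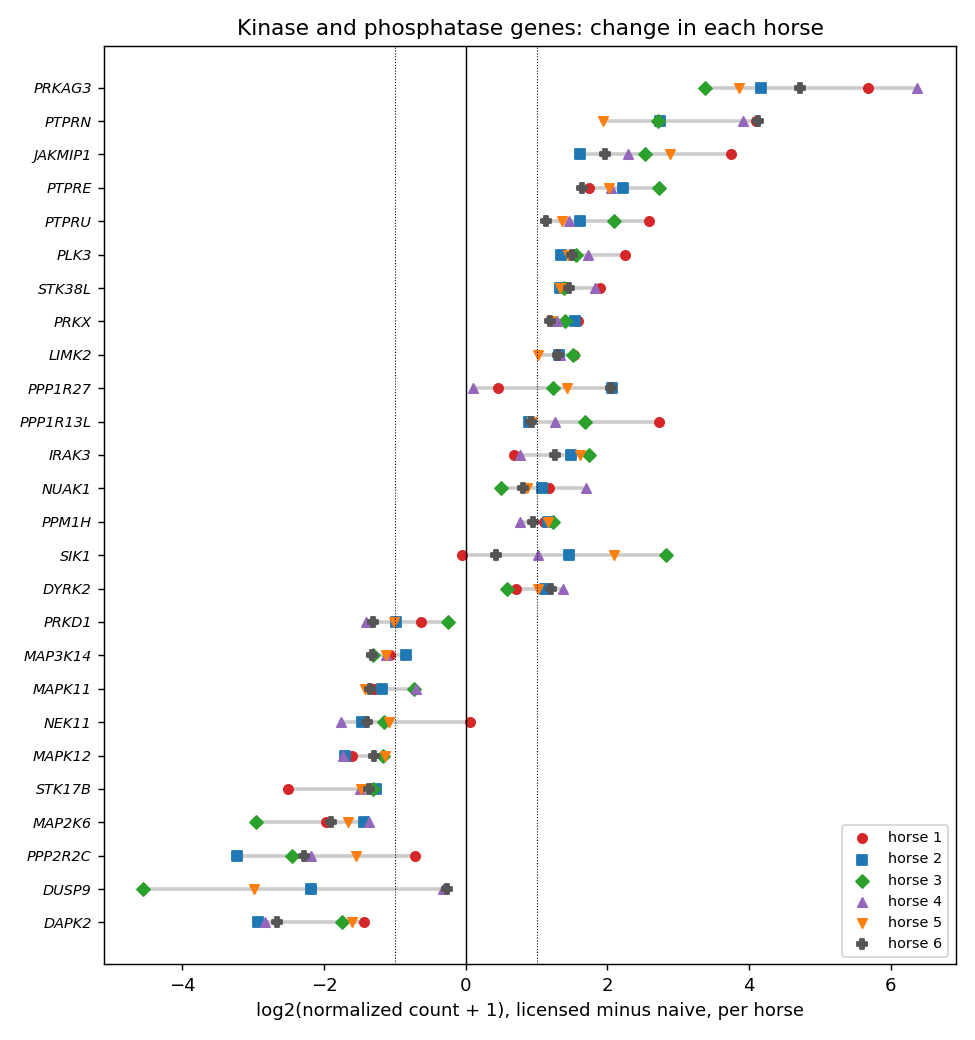
Each point is the change of 1 gene in 1 horse, as log2(normalized count + 1) of the licensed minus the naive library, with 26 genes ordered by the deposited fold change and a grey line over the range of the 6 horses. Dotted lines mark 2-fold changes; 24 of them lie on 1 side of 0 in every horse, and SIK1 and NEK11 cross it in horse 1.

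The MAP kinase cascade passes a signal from MAP3 kinases through MAP2 kinases to MAP kinases such as p38. All 4 members grouped with it by name were lower in licensed cells, as were 50% of the genes of the whole table. They include MAP3K14, which is described below as a kinase of the non-canonical NF-κB pathway. The gene that the rule left out also belongs to the cascade by name and was listed as higher, so the table holds 5 such genes, 4 lower and 1 higher. MAP2K6, the kinase that phosphorylates p38, ranged from 49.5 to 194 normalized counts in licensed libraries (median 149) and from 197 to 694 in naive libraries (median 566). The highest licensed library lay just under the lowest naive one, that of horse 1, and horse 1 was lowest in both groups. The limma log2 fold change was -1.88 ± 0.40 (SE, adjusted p = 7.20e-04), with horses between -2.95 and -1.37.

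MAPK12 encodes p38γ, a form best known from skeletal muscle, and had 166 to 468 normalized counts in licensed libraries (median 332), against 504 to 1028 in naive libraries (median 900). Every licensed library was below every naive one, and the horses changed by similar amounts, between -1.73 and -1.13 on the log2 scale (limma -1.44 ± 0.26, adjusted p = 2.20e-04). MAPK11, which encodes p38β, had 47.5 to 69.4 normalized counts in licensed and 92.2 to 158 in naive libraries, with no overlap (limma -1.11 ± 0.20, adjusted p = 2.20e-04). MAP3K14 encodes NIK, the kinase that starts the non-canonical NF-κB pathway. Its level was 118 ± 27.9 normalized counts in licensed and 257 ± 40.3 in naive cells (mean ± SD, n = 6 each), a change of -1.14 ± 0.20 on the log2 scale (limma, adjusted p = 1.44e-04).

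DUSP9, a dual-specificity phosphatase that removes phosphate from ERK and p38, was the listed dual-specificity phosphatase and rested on few reads, from 1 to 48 per library. Licensed libraries held 1.02 to 11.9 normalized counts (median 4.09) and naive libraries 5.55 to 46.5 (median 17.9). The groups overlapped, and the change in a horse ranged from -4.55 to -0.26 on the log2 scale, with horses 4 and 6 hardly changed (limma -2.08 ± 0.55, adjusted p = 0.00309).

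**Figure D2:**
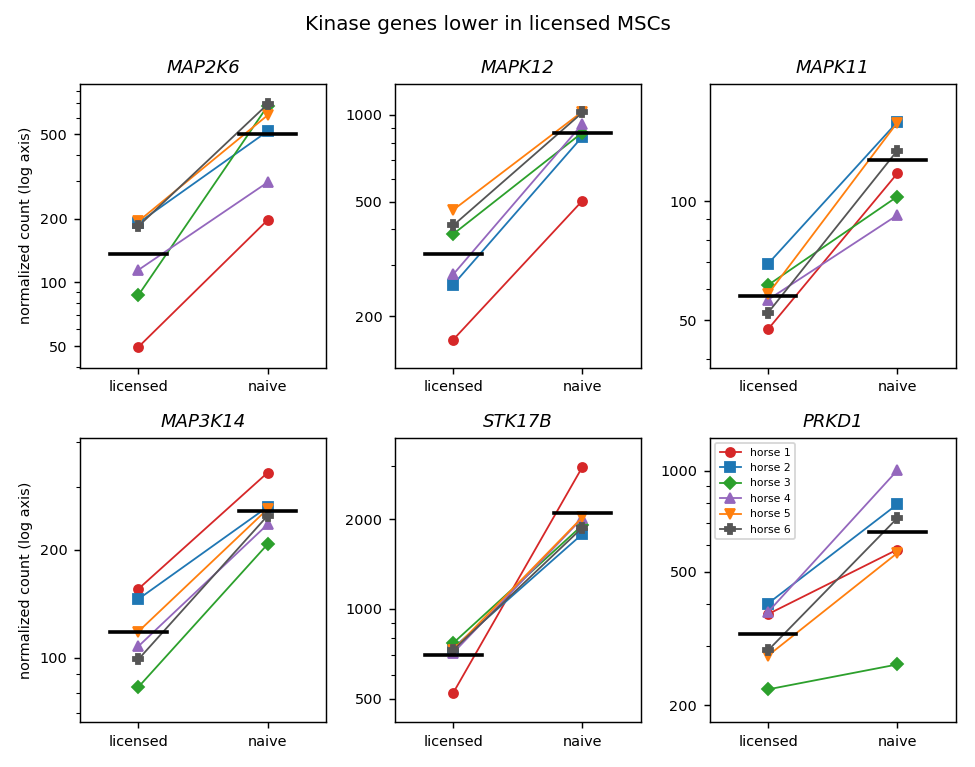
Normalized counts on a log axis for 6 kinase genes that the authors list as lower, with licensed libraries left and naive libraries right, a line joining the 2 libraries of a horse and black bars at the group means. MAP2K6, MAPK12, MAPK11, MAP3K14 and STK17B show no overlap between groups, and PRKD1 does, through the low naive library of horse 3.

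Receptor-type tyrosine phosphatases span the membrane and, where active, oppose tyrosine kinases at the cell surface. PTPRN is a protein of secretory granules without phosphatase activity. All 3 listed members were higher in licensed cells, as were 50% of the genes of the whole table. PTPRN had 139 to 286 normalized counts in licensed libraries (median 186), against 7.41 to 38.8 in naive libraries (median 17.9). The mean was 9.11-fold higher in licensed cells, and the licensed libraries were all above the naive ones (limma log2 fold change 3.25 ± 0.38, adjusted p = 6.39e-06).

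PTPRE, whose product acts on Src family kinases among other targets, had 591 to 864 normalized counts in licensed libraries (median 730) and 119 to 218 in naive libraries (median 181). That is a 4.17-fold higher mean in licensed cells, with horses between 1.63 and 2.72 on the log2 scale (limma 2.07 ± 0.18, adjusted p = 7.27e-07). PTPRU, a family member found at cell-cell contacts, averaged 1124 ± 331 normalized counts in licensed and 339 ± 85.7 in naive cells (SD, n = 6 each). Its change was smallest in horse 6, at 1.13 on the log2 scale, and largest in horse 1, at 2.59, where the naive library was the lowest of the 6.

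Many serine/threonine phosphatases work through catalytic subunits whose targets are set by partner proteins. Of the 4 listed genes of this group, 3 were higher and 1 lower, and all but the phosphatase gene PPM1H encode such partners. PPP1R13L, or iASPP, binds phosphatase 1 and is known as an inhibitor of p53 and of the NF-κB subunit RelA. It had 205 to 249 normalized counts in licensed libraries (median 245) and 34.9 to 132 in naive libraries (median 115). Licensed libraries lay close together and the naive ones did not, with SDs of 0.11 and 0.76 on the log2 scale, and horse 1 had the lowest naive level and the largest change, 2.72 (limma 1.40 ± 0.31, adjusted p = 8.20e-04).

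PPM1H, a phosphatase of Rab GTPases, had 91.9 to 183 normalized counts in licensed and 40.7 to 107 in naive libraries, which overlapped, although each horse rose by a similar amount, from 0.77 to 1.23 on the log2 scale. PPP1R27, a phosphatase 1 regulatory subunit, rested on 3 to 26 reads per library, with 15.0 ± 6.35 normalized counts in licensed and 6.00 ± 3.24 in naive cells. The gene was hardly different in horse 4, at 0.10, and highest in change in horse 2, at 2.07 (limma 1.22 ± 0.39, adjusted p = 0.00932). PPP2R2C, a regulatory B subunit of phosphatase 2A, went the other way, with 1.96 to 11.95 normalized counts in licensed and 10.6 to 57.8 in naive libraries, from 2 to 52 reads each (limma -2.07 ± 0.44, adjusted p = 7.20e-04).

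**Figure D3:**
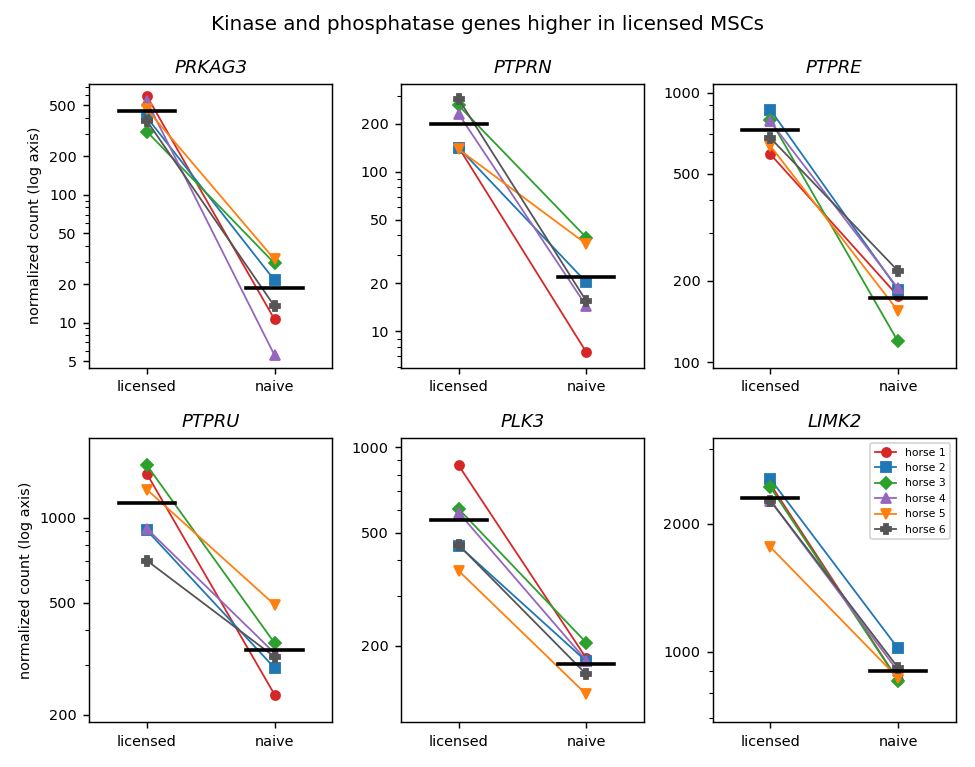
Normalized counts on a log axis for 6 genes that the authors list as higher, with licensed libraries left and naive libraries right, lines joining the 2 libraries of a horse and black bars at the group means. None of the 6 genes has a naive library above a licensed one, and PRKAG3 has the widest gap, with 312 as the lowest licensed and 31.2 as the highest naive value.

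AMPK is the kinase that senses low cellular energy, and PRKAG3 encodes its γ3 subunit, which is known mainly from skeletal muscle. PRKAG3 had 312 to 592 normalized counts in licensed libraries (median 434), against 5.55 to 31.2 in naive libraries (median 17.4). The mean was 24.2-fold higher in licensed cells, and the limma log2 fold change, 4.70 ± 0.37 (adjusted p = 3.33e-07), was the largest of the 27 members. The naive level rested on few reads, at least 5 per library, and horses ranged from 3.38 to 6.37 on the log2 scale. Spread between horses was wider in naive than in licensed libraries, with SDs of 0.34 in licensed and 0.89 in naive cells.

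NUAK1 and SIK1 encode kinases of the AMPK-related family, known from myosin phosphatase control and from cAMP-regulated transcription. NUAK1 had 675 to 1856 normalized counts in licensed libraries (median 1064) and 477 to 627 in naive libraries (median 549). The naive libraries lay close together and the licensed ones did not, so horses changed by 0.50 to 1.70 on the log2 scale (limma 1.02 ± 0.22, adjusted p = 8.04e-04). Its fold change dropped under 2-fold without horse 1 or horse 4, to log2 fold changes of 0.99 and 0.89, and its SD on the log2 scale was 0.53 in licensed and 0.16 in naive cells.

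SIK1 had 635 to 1634 normalized counts in licensed libraries (median 1247) and 217 to 1414 in naive libraries (median 442). The 2 libraries of horse 1 were nearly equal, at 1361 licensed and 1414 naive, while the other 5 horses were higher in the licensed library by 0.42 to 2.82 on the log2 scale. The limma log2 fold change was 1.29 ± 0.43 (adjusted p = 0.0108), and 0.99 with an adjusted p of 0.0520 without horse 3.

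**Figure D4:**
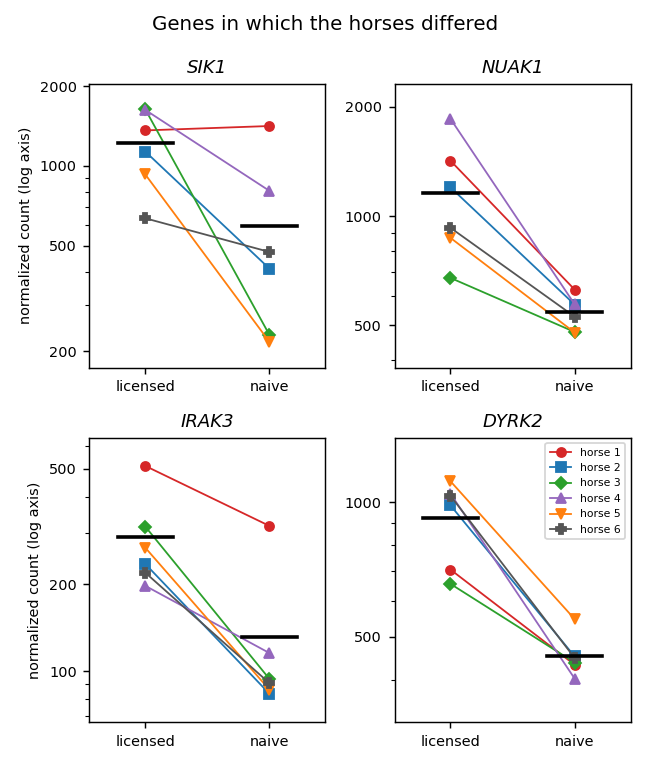
Normalized counts on a log axis of 4 genes that were listed as higher and varied between horses, with licensed libraries left, naive libraries right, a line per horse and black bars at the group means. Horse 1 runs level for SIK1 and lies above all other horses in both groups for IRAK3, while NUAK1 and DYRK2 spread mainly among licensed libraries.

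Protein kinases A, C and D act downstream of cAMP, lipids and calcium, and PRKX and PRKD1 of this name group were listed in opposite directions. PRKX, which encodes a cAMP-dependent kinase close to the catalytic subunit of protein kinase A, had 687 to 1140 normalized counts in licensed and 248 to 379 in naive libraries. Its change was even across horses, 1.19 to 1.59 on the log2 scale (limma 1.37 ± 0.17, adjusted p = 1.14e-05). PRKD1, or protein kinase D1, which acts downstream of diacylglycerol, had 223 to 402 normalized counts in licensed libraries (median 332) and 265 to 1003 in naive libraries (median 652).

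The low naive library of PRKD1 was that of horse 3, whose licensed library was also the lowest. The limma log2 fold change of PRKD1, -0.93 ± 0.29 (adjusted p = 0.00717), missed the 2-fold threshold, although the gene was lower in 6 of 6 horses; it was -1.07 without horse 3. The authors' deposited table gives it a log2 fold change of -1.01.

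LIMK2, which phosphorylates and inactivates the actin-severing protein cofilin, had 1763 to 2548 normalized counts in licensed libraries (median 2354) and 856 to 1019 in naive libraries (median 884). Its naive libraries were the most even of all members, with an SD of 0.10 on the log2 scale, against 0.19 in licensed cells (limma 1.34 ± 0.13, adjusted p = 1.26e-06). STK38L, or NDR2, a kinase related to the Hippo pathway, averaged 1216 ± 154 normalized counts in licensed and 420 ± 56.8 in naive cells (SD, n = 6 each), with a change of 1.53 ± 0.15 on the log2 scale (limma, adjusted p = 1.26e-06).

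DYRK2, a kinase that can phosphorylate p53, had 657 to 1114 normalized counts in licensed and 403 to 548 in naive libraries, without overlap. Its limma log2 fold change of 1.00 ± 0.17 (adjusted p = 1.12e-04) lay at the 2-fold threshold and was 0.93 to 1.00 in the fits without horse 2, 4, 5 or 6, which lost the call. When library scaling was recomputed from the listed genes, a change that shifted the median log2 fold change of the table by -0.24, NUAK1, PPM1H and DYRK2 fell under 2-fold, at 0.78, 0.82 and 0.76. They stayed higher in licensed cells in that fit.

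PLK3, a polo-like kinase of the stress response, had 368 to 864 normalized counts in licensed libraries (median 522) and 135 to 205 in naive libraries (median 177). Horse 1 had the highest licensed library and the largest change, 2.25 on the log2 scale, and the other horses changed by 1.35 to 1.73 (limma 1.64 ± 0.21, adjusted p = 1.35e-05). NEK11, a kinase of the DNA damage checkpoint, rested on 3 to 42 reads and averaged 9.32 ± 4.25 normalized counts in licensed and 22.1 ± 12.7 in naive cells. It was lower in 5 of 6 horses and level in horse 1, at 0.06 on the log2 scale. The limma adjusted p of NEK11 was 0.0218, and 0.0506, 0.0513 and 0.0583 without horse 3, 5 and 6.

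Death-associated kinases are serine/threonine kinases linked to apoptosis and autophagy, and both listed genes of this family were lower. STK17B, also called DRAK2, had 523 to 768 normalized counts in licensed libraries (median 728) and 1783 to 2991 in naive libraries (median 1962). The mean was 3.00-fold lower in licensed cells, with no overlap (limma -1.57 ± 0.16, adjusted p = 1.83e-06). Horse 1 had both the lowest licensed and the highest naive value and a change of -2.51 on the log2 scale, and the other horses changed by -1.5 to -1.27. DAPK2 had the largest fall of the members in the authors' deposited table, a log2 fold change of -2.63. It rested on 1 to 55 reads per library, with 1.02 to 6.85 normalized counts in licensed and 5.81 to 58.9 in naive libraries. Only the naive library of horse 3 lay within the licensed range, and each horse was lower, by -2.93 to -1.44 on the log2 scale.

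The listed genes of cytokine and innate immune receptor kinases were IRAK3 and the Janus kinase partner JAKMIP1, both higher. IRAK3, or IRAK-M, restrains signalling from interleukin-1 and Toll-like receptors. It had 197 to 512 normalized counts in licensed libraries (median 251) and 83.5 to 318 in naive libraries (median 92.4). The naive library of horse 1, at 318, stood above the other 5, at 83.5 to 116, and above 5 of the 6 licensed libraries. Each horse still rose, by 0.69 in horse 1 to 1.74 in horse 3 on the log2 scale (limma 1.26 ± 0.34, adjusted p = 0.00338). JAKMIP1, which binds Janus kinases and microtubules, rested on 3 to 111 reads per library. It had 21.5 to 112 normalized counts in licensed and 2.91 to 21.4 in naive libraries. The lowest licensed library was thus level with the highest naive one (limma 2.5 ± 0.50, adjusted p = 4.30e-04).

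The spread between horses did not follow 1 pattern over the members. On the log2 scale the SD was smaller in licensed than in naive libraries for 16 of 27 members, 59.3%, and for 55.3% of the table. Among genes with at least 50 normalized counts on average in both groups it was 9 of 18 members, 50%, against 53.2% of the table. Horse 1 had the highest naive library for 6 members and the lowest for 8, and over the table for 358 and 462 of 1341 genes. Horse 2 had the highest naive library for 7 members and for 236 genes of the table. The licensed library of horse 3 was the lowest of its group for 13 members, 48.1%, against 22.1% of the table; these included PRKAG3, JAKMIP1, STK38L, NUAK1, DYRK2, PRKD1 and MAP3K14. This count was chosen after its value was seen and has no test.

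**Figure D5:**
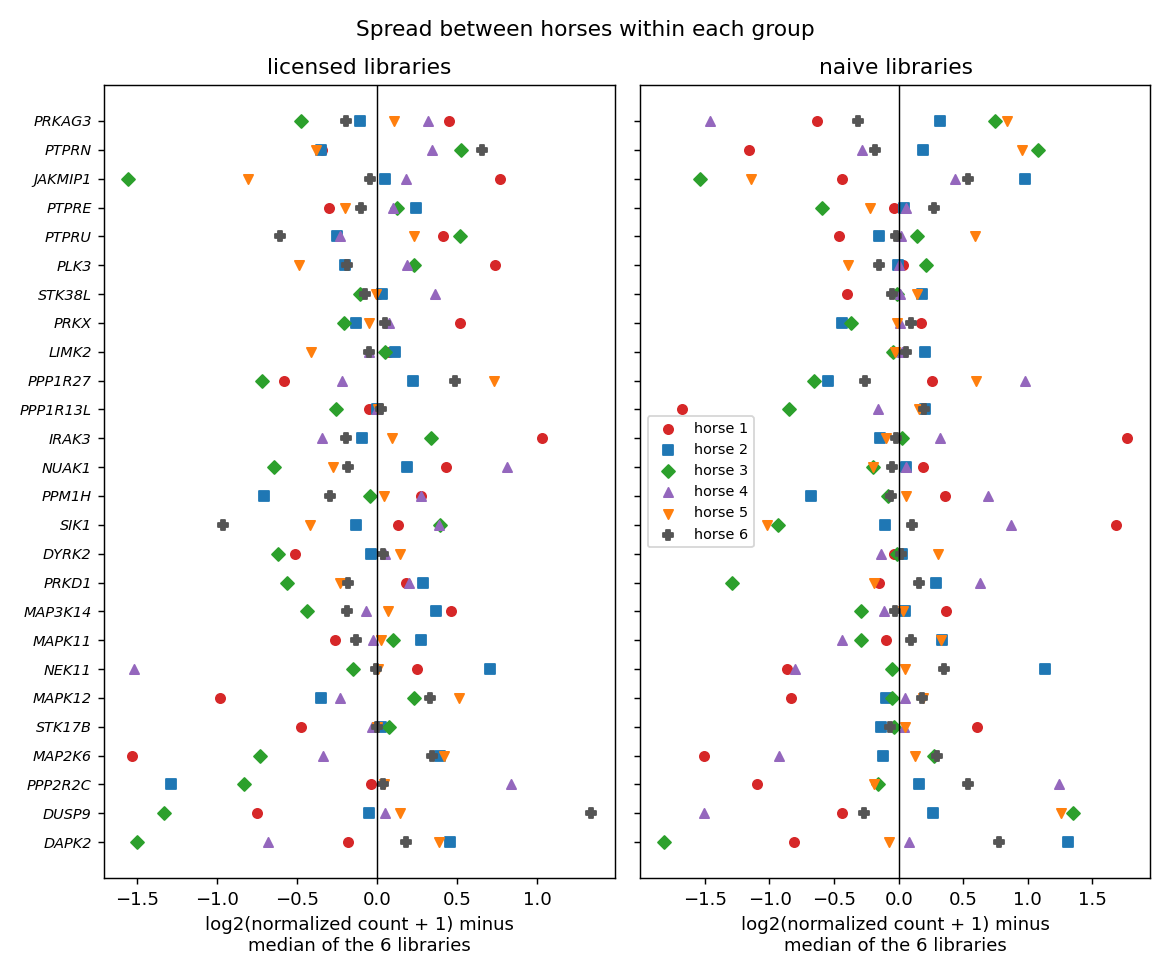
Each point is 1 library, as log2(normalized count + 1) minus the median of its group, for licensed libraries (left) and naive libraries (right) of the same 26 genes. Horse 1 lies far above the other naive libraries for IRAK3, at 1.77, and far below them for PPP1R13L, at -1.68, and horse 3 lies low among licensed libraries for JAKMIP1, at -1.56.

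Other kinase genes were taken from lists of names, drawn up with earlier results of these data known. Of 77 receptor and non-receptor tyrosine kinases, 9 were in the table, 1 higher and 8 lower, against 50% of the whole table in each direction. Limma, on the same libraries, made the same calls, and their median deposited log2 fold change was -1.72. FGFR3, a fibroblast growth factor receptor of cartilage, averaged 72.4 ± 20.9 normalized counts in licensed and 660 ± 286 in naive cells (SD, n = 6 each). PTK2B, a focal adhesion kinase relative activated by calcium, averaged 60.3 ± 28.2 in licensed and 377 ± 142 in naive cells. The ephrin receptor gene EPHB2 averaged 82.4 ± 60.2 normalized counts in licensed and 479 ± 397 in naive cells, with overlapping libraries. PTK7, a pseudokinase of Wnt and planar polarity signalling, was the listed tyrosine kinase that rose, with 28451 ± 1947 normalized counts in licensed and 8743 ± 1208 in naive cells, and was chosen after its value was seen.

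Of 118 other serine/threonine kinases, 5 were in the table, 3 higher and 2 lower, of which limma called 3 and 1. PIM1, a survival kinase induced by cytokines, averaged 1945 ± 334 normalized counts in licensed and 464 ± 67.9 in naive cells, a change of 2.06 ± 0.16 on the log2 scale (limma, adjusted p = 2.43e-07). The AMPK-related brain kinases went opposite ways: BRSK1 averaged 346 ± 91.1 normalized counts in licensed and 169 ± 42.4 in naive cells, and BRSK2 averaged 43.6 ± 21.9 in licensed and 92.0 ± 41.9 in naive cells.

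Targets and feedback regulators of the ERK pathway were listed as 9 higher and 2 lower, of 51 genes, against 50% of the whole table in each direction. This list was drawn up with earlier results of these data known, so the split was not tested against that share. The median deposited log2 fold change of the listed ERK pathway genes was 1.41. The largest changes among them were those of the cytokine gene LIF, with a limma log2 fold change of 4.27 ± 0.52 (adjusted p = 9.36e-06), the immediate early gene IER3, and the EGF receptor ligand gene EREG. The 2 that were lower were the ephrin receptor gene EPHA4, also among the tyrosine kinases, and FOS, which averaged 1632 ± 533 normalized counts in licensed and 3309 ± 777 in naive cells.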

How the data were processed

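Per the submitters' processing notes, the tools were Trimmomatic 0.36 for trimming, STAR 2.5.2b for alignment, featureCounts (Subread 1.5.2) for counting, and DESeq2. Genome build, annotation, DESeq2 version and use of strand are not given in the sources used, so reads of a gene and of one overlapping it on the other strand cannot be told apart. The deposited table gives, from the authors, a log2 fold change with its p-value, raw and adjusted, and a signal for each of 12 libraries that the authors made from read counts. It lists genes past an absolute log2 fold change of 1 and an adjusted p of 0.05.

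Values divided by the step of their library were whole, within 0.01 reads, for 100% of genes, and reads were recovered by division (size factors 0.9003 to 1.171). The step of the licensed library of horse 1, 1.01, is close to 1 read, and edgeR was also run without that horse. DESeq2 1.42.0 without a term for the horse gave the deposited log2 fold changes (0 genes off by over 0.01).

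Members were fitted by limma 3.58.1 in R 4.3.3, with robust, trended empirical Bayes moderation, on log2(normalized count + 1) of all 1341 genes and no horse term. P-values were adjusted by Benjamini-Hochberg. A change on this scale understates that of low genes. Deviations of the 2 libraries of a horse correlated at 0.484 to 0.631, and the titles pair them by horse. Alternatives were other pseudocounts, a level filter, the horse as a block, edgeR 4.0.16, DESeq2, rescaling, and leaving out each horse. The fits were also run on simulated libraries without a horse effect, unlike these data, so that run only checks the fits themselves.

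The members and lists were chosen with earlier results of these data known. Of the 27 members, counts include all and 1 is not reported here by name. Fuller values go to those with the largest deposited changes at 50 or more normalized counts in the higher group, the highest level, or the largest change of their role group. From other lists the 3 largest changes at that level are named.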

Additional observations from a re-analysis of the deposited data

Results flagged for a closer look

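Of 81 sets of 6 values (licensed level, naive level and change of each of the 27 members), 12 had a highest or lowest value whose gap to the next exceeded 0.625 of the whole range. For 6 independent values from a normal distribution, such a gap comes up in about 1 of 20 sets. Normalized counts need not follow that distribution, and the 3 sets of a gene share their values. The number of flags was therefore not tested against chance. Of the 12, 7 were values of horse 1. STK17B in horse 1 stood apart in all 3 sets, at 523 normalized counts in the licensed library, 2991 in the naive library and a log2 change of -2.51. The naive library of horse 1 also stood apart for IRAK3, at 318 normalized counts, and MAPK12, at 504. The licensed library of horse 1 stood apart for PRKX, at 1140 normalized counts, and its NEK11 change was 0.0635 on the log2 scale, against -1.77 to -1.09 in the other horses. In other horses, the licensed libraries of STK38L in horse 4 (1518 normalized counts), LIMK2 in horse 5 (1763), PPP1R13L in horse 3 (205) and DUSP9 in horse 6 (11.9) stood apart, and the naive library of DYRK2 in horse 5 (548).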

How the results depend on the processing

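The counts of 16 higher and 10 lower members kept within 1.5 times under every alternative except 1. Restricting the fit to genes with a mean of at least 50 normalized counts, which leaves 20 members, gave 14 higher and 5 lower, because low genes are not tested there. With the horse as a replicate block limma gave 16 and 10, and the block changed no member's call. On recovered reads edgeR called 669 genes of the table higher and 671 lower, and 16 and 11 members; DESeq2 also gave 16 and 11, as did edgeR without horse 1 (chosen after seeing the data), and edgeR with the block 16 and 10. Scaling over the listed genes gave 13 and 11 members, and moved the whole table to 473 higher and 660 lower genes, against 649 and 627; a pseudocount of 0.5 gave 16 and 10, and one of 5 gave 14 and 9, losing PPP1R27, DYRK2 and NEK11. Leaving out each horse gave 14 to 15 higher and 9 to 10 lower. No member reversed under any alternative run. Members with a handful of reads in a library, which include PPP1R27, NEK11, JAKMIP1, PPP2R2C, DUSP9 and DAPK2, have the largest counting error.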

Other observations

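Partners and neighbours of these enzymes were also in the table, looked up from lists drawn up with earlier results of these data known. Of 60 scaffolds and inhibitors of kinases and phosphatases, 3 were listed, all higher, as were 50% of the genes of the whole table. RCAN1, an inhibitor of the phosphatase calcineurin, averaged 7421 ± 3697 normalized counts in licensed and 2608 ± 1416 in naive cells (SD, n = 6 each). SOCS3, which restrains Janus kinases, averaged 3721 ± 1447 in licensed and 1362 ± 404 in naive cells, and GADD45B, an activator of the p38 and JNK pathway kinase MAP3K4, averaged 603 ± 97.2 in licensed and 264 ± 56.4 in naive cells. Of 68 other phosphatases, 3 were higher and 3 lower. INPP5J, an inositol phosphatase, and ALPL, tissue-nonspecific alkaline phosphatase, were higher, with limma log2 fold changes of 1.51 ± 0.25 and 1.59 ± 0.67, and PHLPP1, a phosphatase of AKT, was lower, at -1.18 ± 0.17.

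Of 53 cyclins, CDK inhibitors and cell cycle genes, 3 were listed. The cyclin genes CCNJ and CCNE2 averaged 600 ± 76.5 and 235 ± 30.9 normalized counts in licensed cells, against 265 ± 29.2 and 117 ± 16.9 in naive cells, and CCND2 averaged 523 ± 197 in licensed and 1284 ± 365 in naive cells. Of 20 glycogen genes, the glycogen phosphorylase gene PYGL was higher, at 8184 ± 2126 normalized counts in licensed and 3971 ± 1079 in naive cells. The glycogenin gene GYG2 was lower, at 392 ± 107 in licensed and 865 ± 250 in naive cells.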
